A study of Mus musculus with 19 samples.

Results

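The 42 genes described here encode splicing factors and the CLK kinases that phosphorylate them. They were taken from the table by symbol, as a set drawn up with earlier results of these data known: 10 SR proteins, 2 TRA2 proteins, 4 CLK kinases, 3 SR-related proteins of nuclear speckles, 4 RBM and LUC7L proteins, 3 factors of the 3′ splice site, and 16 hnRNPs, PTBP1 counted among them. All 42 symbols are among the 31276 genes of the deposited count table, and all 42 were among the 16704 genes with enough counts to be tested. RNA came from tumours of HCC827, a human EGFR-mutant lung adenocarcinoma cell line, grown as xenografts in NCG mice, which lack mature T, B and natural killer cells but keep myeloid cells and their own stroma. The 4 groups were osimertinib plus 6-thio-dG (the combination, 5 libraries), osimertinib alone (5 libraries), 6-thio-dG alone (called thio, 4 libraries) and DMSO as control (5 libraries). Osimertinib inhibits mutant EGFR, and 6-thio-dG is a nucleoside analogue that telomerase can add to chromosome ends. All 4 groups carried the same tumour line in the same mouse strain; for doses, schedules and mouse ages the labels used here give no value. The study asked what the combination changes in the tumours relative to either drug alone.

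Splicing removes introns from pre-mRNA. SR proteins and TRA2 proteins bind exons and mostly favour their inclusion, hnRNPs often oppose inclusion, and CLK kinases phosphorylate SR proteins and so release them from nuclear speckles. Transcripts of several SR proteins and CLK kinases are known to carry retained introns or poison exons, and counts per gene do not separate such transcripts from coding ones.

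The libraries held 17731752 to 27450535 counts in the combination group, 23068873 to 35397346 in osimertinib, 25322580 to 34664918 in thio and 22348698 to 30734539 in control. Whether the libraries come from different animals is not stated in the labels, and p-values measure the spread between these libraries, which may in part be technical. The 10 epithelial markers, EPCAM, KRT8 and EGFR among them, were detected in every library, and their summed level ranged from 13737 to 23597 CPM (counts scaled to the library total) in the combination, 19642 to 22768 CPM in osimertinib, 18069 to 24335 CPM in thio and 19271 to 24096 CPM in control libraries. Summed levels of 10 fibroblast, 7 endothelial, 7 leukocyte and 11 skeletal muscle markers gave adjusted p-values of 0.651, 0.952, 0.847 and 0.365 for the combination against control in exact permutation tests (n = 5 each). Of the 9 fibroblast markers tested singly, 2 were called higher and 4 lower in the combination against control. Of 5 endothelial markers 0 were called higher and 2 lower, and of 11 skeletal muscle markers 0 higher and 1 lower. Between the combination and control 0 of 6 leukocyte markers were called, beside 25.7% of all tested genes called higher and 23.1% lower. The ranges of the summed levels overlapped between these 2 groups in all 4 cases, and some defining markers were at 0 in part of the libraries (DCN in 6, EMCN in 6 and TYROBP in 11 of 19). In bulk tumour RNA, fewer cells of a type and less RNA per cell cannot be told apart.

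Some libraries stood apart in measures that hold no splicing gene. The 3 left out together below (combination 3, combination 5 and thio 3) were chosen with earlier results of these data known. The 13 mitochondrial protein-coding genes took 11.0% to 30.2% of counts in the combination libraries, 8.62% to 16.0% in osimertinib, 5.27% to 7.86% in thio and 7.04% to 9.29% in control libraries. The mean share was 18.6% ± 7.54 in the combination and 8.15% ± 0.835 in control (SD, n = 5 each; 2-sided exact permutation test, p = 0.00794, adjusted over 5 comparisons p = 0.0265). Combination 5 held the highest share, 30.2%, and combination 3 followed with 20.9%. The summed level of 271 olfactory receptor genes was 25.2 ± 11.2 CPM in the combination and 14.8 ± 3.57 CPM in osimertinib (SD, n = 5 each). It was 13.4 ± 6.48 CPM in thio and 4.99 ± 3.07 CPM in control (SD, n = 4 and 5). The highest values were 39.5 CPM in combination 5 and 33.5 CPM in combination 3, and thio 3, with 22.8 CPM, was the highest of its group. The nuclear RNAs MALAT1 and NEAT1 were higher in the combination than in control, by log2 fold changes of 1.10 ± 0.29 (SE; edgeR adjusted p = 0.00489) and 1.30 ± 0.24 (SE; edgeR adjusted p = 0.000415).

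**Figure D1:**
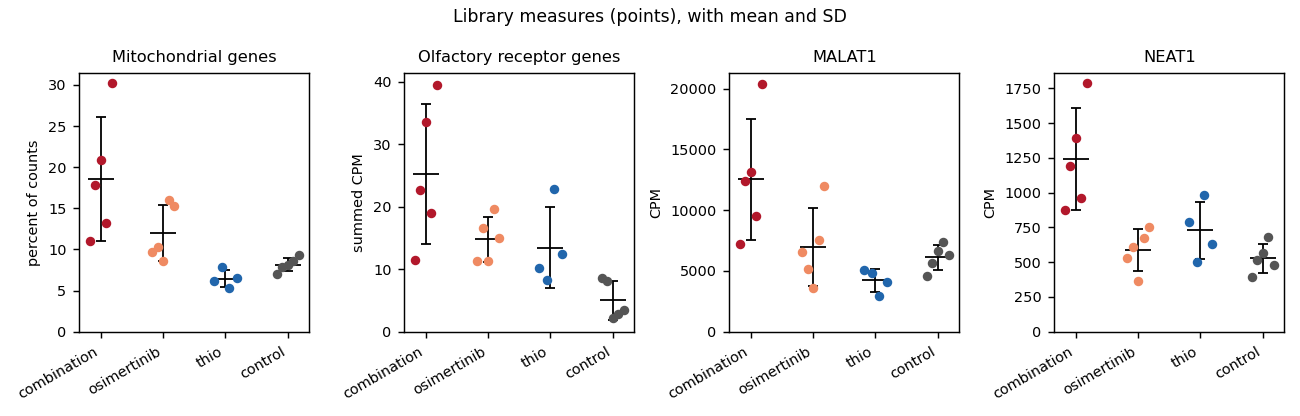
Percent of counts in mitochondrial genes, summed olfactory receptor CPM, and MALAT1 and NEAT1 CPM for each library, by group; each point is 1 library. Combination 5 is the highest library in all 4 measures, with 30.2% mitochondrial counts against 7.04% to 9.29% in control libraries.

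Under the combination, 31 of the 42 genes differed from control at an edgeR adjusted p under 0.05, 16 higher and 15 lower. Of all tested genes 48.7% were called in this comparison, 25.7% higher and 23.1% lower and the members' share was 73.8%. By family, 3 of 4 CLK kinases rose and 0 fell, 4 of 4 RBM and LUC7L genes rose, and 10 of 16 hnRNPs fell and 1 rose. The other families held calls in both directions: 4 of 10 SR proteins rose and 2 fell, 2 of 3 speckle proteins rose and 1 fell, and of the TRA2 proteins and the 3′ splice site factors 1 rose and 1 fell in each. Differences between families were not tested. The median log2 fold change over the 42 genes was 0.09, beside 0.02 over all tested genes. Without overlap between the groups, 10 members lay above control and 8 below, beside 26.8% of all tested genes (14.5% above and 12.3% below).

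**Figure D2:**
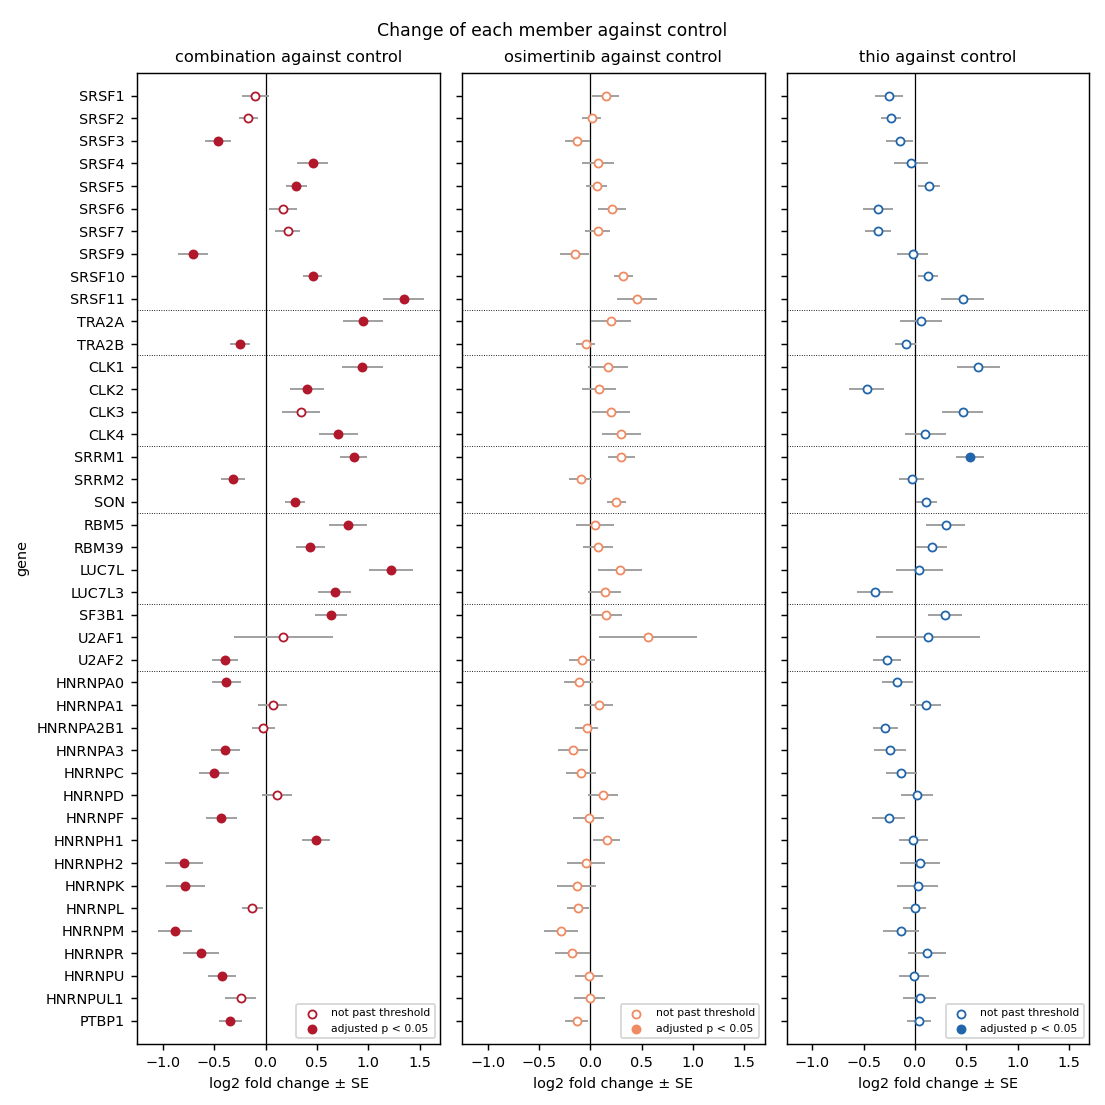
Log2 fold change of each of the 42 genes against control in the combination, osimertinib and thio groups, with filled points for genes called at an adjusted p under 0.05. In the combination 31 points are filled, in osimertinib 0 and in thio 1 (SRRM1).

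Among the 10 SR proteins, 4 rose (SRSF11, SRSF10, SRSF4 and SRSF5) and 2 fell (SRSF9 and SRSF3) in the combination. SRSF11, an SR protein tied to splice site selection, had 359, 554, 695, 493 and 966 CPM in combination libraries 1 to 5, against 205, 257, 234, 236 and 274 CPM in control libraries 1 to 5. Every combination library lay above every control library, and combination 5 was the highest. The log2 fold change of SRSF11 was 1.35 ± 0.20 (SE; edgeR adjusted p = 7.86e-05), the largest among the 42 genes. SRSF10, which acts as a repressor of splicing when it loses its phosphates, had 171, 193, 190, 183 and 189 CPM in combination libraries, against 151, 147, 131, 110 and 134 CPM in control libraries. The groups did not overlap, the combination libraries lay close together, and the log2 fold change was 0.46 ± 0.09 (SE; edgeR adjusted p = 0.000782). SRSF9, an SR protein with a short arginine-serine domain, had 101, 101, 80.9, 103 and 49.6 CPM in combination libraries, against 154, 144, 134, 139 and 141 CPM in control libraries. All 5 combination libraries lay below control, combination 5 lowest, with a log2 fold change of -0.71 ± 0.14 (SE; edgeR adjusted p = 0.000749).

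Of the other SR proteins, SRSF3, which also links splicing to mRNA export, averaged 143 ± 26.8 CPM in the combination and 197 ± 21.0 CPM in control (SD, n = 5 each; log2 fold change -0.46, edgeR adjusted p = 0.00547). SRSF4 and SRSF5 were higher by log2 fold changes of 0.46 and 0.30, calls that were lost without combination 5 or control 2 for SRSF4 and without combination 3 for SRSF5. SRSF1, the founding member of the family, SRSF2, SRSF6 and SRSF7 did not pass the test, with log2 fold changes between -0.17 and 0.21. The paired TRA2 proteins, which bind purine-rich exonic enhancers, moved in opposite directions: TRA2A averaged 242 ± 73.5 CPM in the combination and 126 ± 11.5 CPM in control (SD, n = 5 each; log2 fold change 0.95, edgeR adjusted p = 0.000783), whereas TRA2B was lower by a log2 fold change of -0.25 (edgeR adjusted p = 0.0384). The TRA2B call was lost without combination 3, 4 or 5 or without control 1 or 2.

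Of the 4 CLK kinases, CLK1, CLK4 and CLK2 rose in the combination against control, and CLK3 did not pass the test. CLK1 had 172, 217, 314, 226 and 349 CPM in combination libraries and 144, 134, 112, 162 and 199 CPM in osimertinib libraries. CLK1 levels were 188, 139, 293 and 196 CPM in thio libraries and 130, 152, 124, 130 and 128 CPM in control libraries. Each combination library exceeded each control library, and thio 3 lay above combination libraries 1, 2 and 4. The CLK1 log2 fold change in the combination against control was 0.94 ± 0.20 (SE; edgeR adjusted p = 0.000962).

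CLK4, the closest relative of CLK1, had 23.2, 29.4, 37.5, 28.4 and 44.9 CPM in combination libraries and 25.6, 17.8, 18.8, 30.1 and 31.0 CPM in osimertinib libraries. CLK4 levels were 23.6, 15.9, 25.4 and 20.9 CPM in thio libraries and 23.7, 22.9, 16.7, 17.4 and 19.3 CPM in control libraries. Combination 1 lay within the control range and the other 4 combination libraries above it, and the log2 fold change was 0.71 ± 0.19 (SE; edgeR adjusted p = 0.00513). CLK2, which also phosphorylates SR proteins, had 117, 162, 141, 135 and 221 CPM in combination libraries and 116, 108, 90.8, 158 and 151 CPM in osimertinib libraries. CLK2 levels were 89.7, 94.7, 88.0 and 65.8 CPM in thio libraries and 110, 122, 116, 122 and 116 CPM in control libraries. Thio libraries had the lowest mean of the 4 groups and lay below control without overlap. Against control, the combination's log2 fold change was 0.40 ± 0.16 (SE; edgeR adjusted p = 0.0478), and this call was lost in 14 of the 19 fits that each left out 1 library (all 5 control libraries, all 4 thio libraries, combination 2, 3 and 5, and osimertinib 1 and 2). CLK3 had 77.9, 98.1, 89.5, 90.3 and 124 CPM in combination libraries and 80.4, 82.3, 69.0, 102 and 101 CPM in osimertinib libraries. CLK3 levels were 85.0, 72.4, 168 and 91.5 CPM in thio libraries and 67.0, 70.2, 85.1, 67.4 and 87.5 CPM in control libraries. The single highest CLK3 value was that of thio 3, and the combination's log2 fold change of 0.35 against control did not pass the test (edgeR adjusted p = 0.129).

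**Figure D3:**
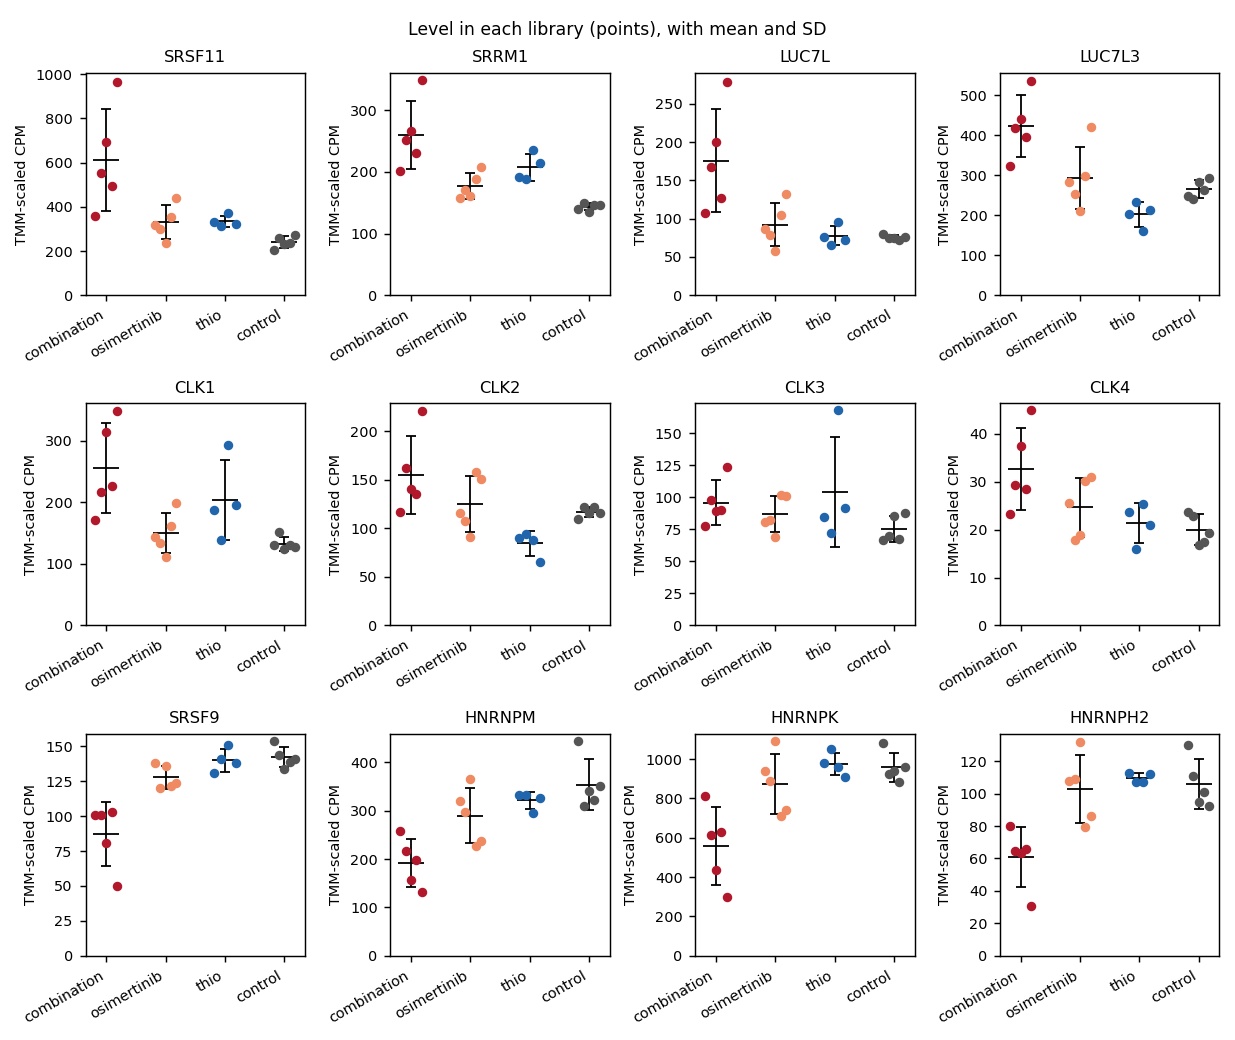
Level in CPM of SRSF11, SRRM1, LUC7L, LUC7L3, CLK1 to CLK4, SRSF9, HNRNPM, HNRNPK and HNRNPH2 in each library (points) with the group mean ± SD (n = 5 combination, 5 osimertinib, 4 thio and 5 control). SRRM1 lies between 202 and 349 CPM in combination libraries against 135 to 149 CPM in control libraries, and CLK4 of combination 1 lies within the control range.

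Among the speckle proteins 2 rose and 1 fell. SRRM1, a coactivator that bridges SR proteins and snRNPs, had 202, 252, 266, 231 and 349 CPM in combination libraries, against 140, 149, 135, 146 and 146 CPM in control libraries. All combination libraries lay above control, and the log2 fold change was 0.86 ± 0.13 (SE; edgeR adjusted p = 7.89e-05). SON, a scaffold of the speckle, was higher by a log2 fold change of 0.29 (edgeR adjusted p = 0.0196), and SRRM2, the other speckle scaffold, was lower by a log2 fold change of -0.32 (edgeR adjusted p = 0.0272). The SON call was lost without control 3, and the SRRM2 call without combination 2, combination 3 or control 5 and under upper-quartile scaling. Both calls were also lost without a filter on low counts and with only the groups compared in the fit.

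All 4 RBM and LUC7L genes rose. LUC7L, a homologue of a yeast U1 snRNP protein, had 107, 167, 200, 127 and 279 CPM in combination libraries, against 79.8, 75.0, 74.3, 72.0 and 76.4 CPM in control libraries. Control libraries lay close together, all below the lowest combination library, and the log2 fold change was 1.22 ± 0.22 (SE; edgeR adjusted p = 0.000291). Its relative LUC7L3 had 324, 419, 441, 395 and 536 CPM in combination libraries, against 248, 240, 284, 262 and 292 CPM in control libraries (log2 fold change 0.67 ± 0.16, SE; edgeR adjusted p = 0.00248), again with no overlap. RBM5, a regulator of apoptosis-related exons, had 216, 333, 381, 256 and 504 CPM in combination libraries, against 196, 195, 189, 194 and 194 CPM in control libraries. Every combination library lay above control, by a log2 fold change of 0.80 ± 0.18 (SE; edgeR adjusted p = 0.0016). RBM39, a relative of U2AF2, was higher by a log2 fold change of 0.43 (edgeR adjusted p = 0.0167), a call lost without combination 5.

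At the 3′ splice site, SF3B1, the U2 snRNP subunit that holds the branch point, was higher in the combination by a log2 fold change of 0.64 (edgeR adjusted p = 0.00277), and U2AF2, which binds the polypyrimidine tract, was lower by a log2 fold change of -0.40 (edgeR adjusted p = 0.0147). U2AF1, its partner at the splice site dinucleotide, is uncertain: its counts are identical in every library to those of a duplicate gene model, LOC102724594. Its raw counts were 71 in combination 3, 46 in control 1 and 37 in control 4, but between 131 and 493 in the other 16 libraries, and no direction is given for it.

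Of the 16 hnRNPs, 10 fell, 1 rose (HNRNPH1) and 5 did not pass the test, with a median log2 fold change of -0.39. HNRNPM, a regulator of exon skipping, had 258, 216, 157, 197 and 131 CPM in combination libraries, against 444, 310, 340, 322 and 352 CPM in control libraries. The highest combination library lay below the lowest control library, and the log2 fold change was -0.88 ± 0.17 (SE; edgeR adjusted p = 0.000416). HNRNPH2 had 80.3, 64.6, 63.4, 65.6 and 30.7 CPM in combination libraries, against 130, 111, 94.8, 101 and 92.4 CPM in control libraries. The groups did not overlap, combination 5 lay far below the other 4 combination libraries, and the log2 fold change was -0.80 ± 0.18 (SE; edgeR adjusted p = 0.00184). Its close relative HNRNPH1 rose by a log2 fold change of 0.49 (edgeR adjusted p = 0.00567).

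HNRNPK, a poly-C binding protein, averaged 557 ± 198 CPM in the combination and 958 ± 74.0 CPM in control (SD, n = 5 each; log2 fold change -0.78, edgeR adjusted p = 0.0027). HNRNPR, HNRNPC, HNRNPU, HNRNPF, HNRNPA3, HNRNPA0 and PTBP1 were lower by log2 fold changes of -0.63, -0.50, -0.43, -0.43, -0.39, -0.38 and -0.35. Of these calls, that of HNRNPA3 was lost without combination 3, combination 5 or control 1, that of HNRNPA0 without combination 3, combination 5, control 3 or control 4, and that of HNRNPF without combination 3 or control 1. PTBP1 binds polypyrimidine tracts and represses exons, HNRNPC binds uridine tracts, HNRNPF binds G tracts, and HNRNPU is a nuclear matrix protein. HNRNPA1, HNRNPA2B1, HNRNPD, HNRNPL and HNRNPUL1 did not pass the test, with log2 fold changes between -0.24 and 0.11. Numbered pseudogene copies of HNRNPA1 (10 copies), HNRNPA3 (11), HNRNPC (6), HNRNPK (3) and HNRNPH1 (2) are in the table, so reads shared with them may have been split; the copies of HNRNPA3 held 2234 counts in all, beside 189455 for the gene.

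The 5 combination libraries did not move by the same amount. Averaged over the 16 genes that rose, log2 CPM lay above the control mean by 1.09 in combination 5, 0.78 in combination 3, 0.65 in combination 2, 0.48 in combination 4 and 0.29 in combination 1. Over the 15 that fell the averages were -1.03, -0.67, -0.37, -0.39 and -0.24 in the same order of libraries. Combination 5 was the highest combination library for 14 of the 16 and the lowest for 14 of the 15. The mitochondrial share was 30.2% in combination 5, 20.9% in combination 3, 17.8% in combination 2, 13.2% in combination 4 and 11.0% in combination 1, the same order as for the genes that rose. No combination library had a mitochondrial share within the control range, so treatment and mitochondrial share cannot be told apart in this comparison. With that share as a covariate 2 members stayed called (SRSF11 and SRRM1), beside 3.24% of all tested genes, and with the olfactory receptor level as a covariate 0 did, beside 0.329%. Without combination 3, combination 5 and thio 3, 16 members were called, 10 higher and 6 lower, beside 28.3% of all tested genes. Those 16 were SRSF3, SRSF9, SRSF10, SRSF11, TRA2A, CLK1, SRRM1, RBM5, LUC7L, LUC7L3, SF3B1, HNRNPC, HNRNPH1, HNRNPH2, HNRNPK and HNRNPM.

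**Figure D4:**
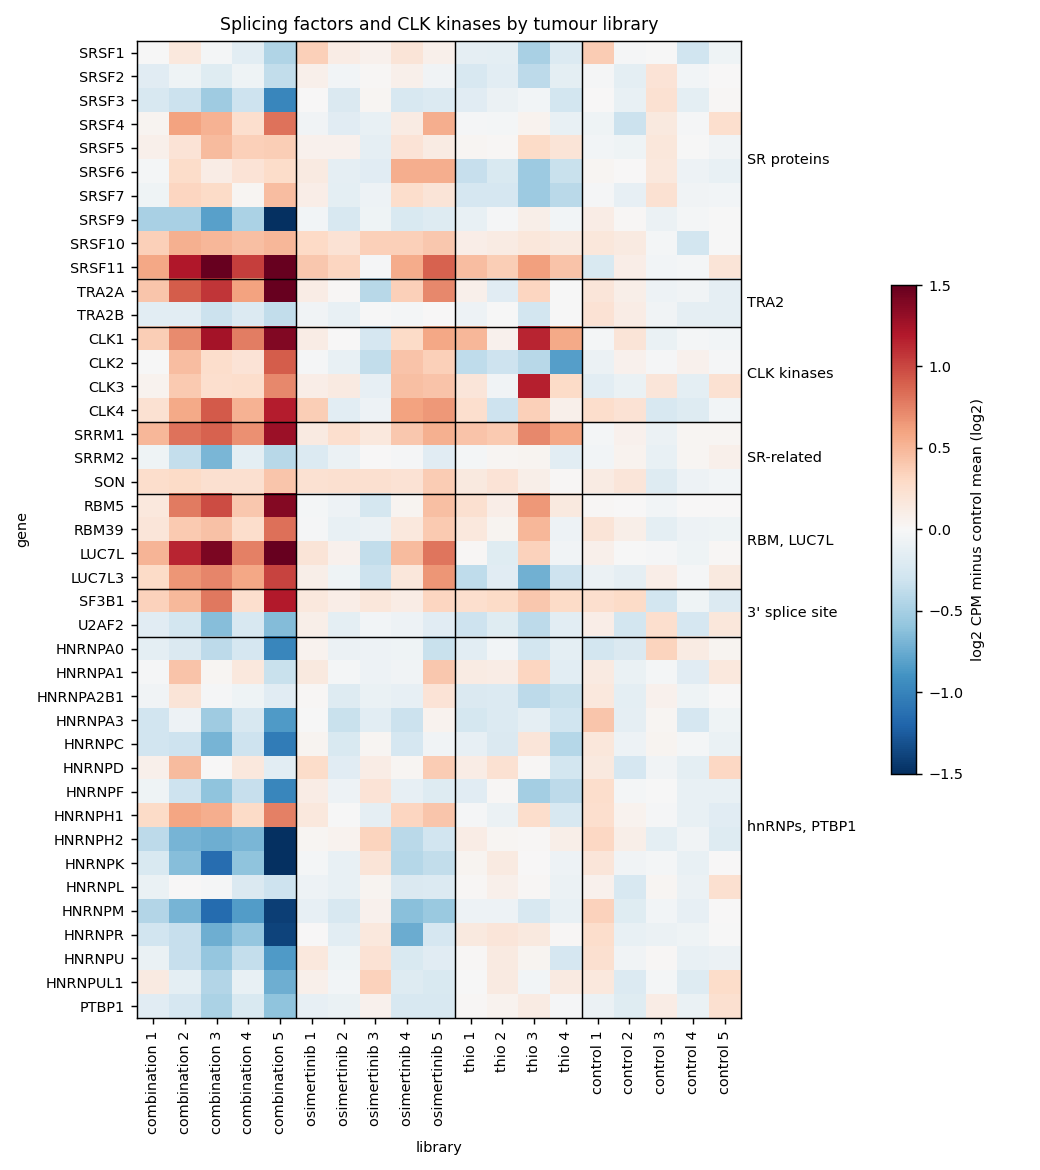
Log2 CPM of 41 genes (all but U2AF1) in each of the 19 libraries minus the gene's control mean, with colours capped at 1.5 in either direction; rows are genes by family and columns are libraries by group. The deepest colours are in combination 5, where the genes that rose average 1.09 above and the genes that fell average -1.03, and combination 1 is the palest of its group.

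Upper-quartile scaling raised the median log2 fold change of all genes in the combination against control to 0.13, beside 0.02 with the scaling used here. Under it 63.4% of all calls were higher, beside 52.7%, and 17 members were called higher and 8 lower. The 7 calls lost were all in the lower direction: HNRNPA3, HNRNPF, HNRNPA0, PTBP1, SRRM2, U2AF2 and TRA2B. The call gained was SRSF7, and no member called here changed sign.

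Under osimertinib alone, 0 of the 42 genes were called by edgeR (4 had an unadjusted p under 0.05), beside 4.16% of all tested genes (2.7% higher and 1.46% lower). DESeq2 called SON and SRSF10, beside 7.19% of all tested genes. SRSF10 came closest in edgeR, with 165, 156, 171, 171 and 178 CPM in osimertinib libraries against 151, 147, 131, 110 and 134 CPM in control libraries. The groups did not overlap for SRSF10, whose log2 fold change was 0.32 ± 0.09 (SE; edgeR adjusted p = 0.0573). SRRM1 and SON also lay above control without overlap, so 3 members did and 0 lay below, beside 5.84% of all tested genes (3.75% above and 2.1% below). SRRM1 had 158, 171, 160, 189 and 208 CPM in osimertinib libraries, with a log2 fold change of 0.30 against control that did not pass the test. Within the osimertinib group, the 16 genes that rose in the combination lay on average 0.51 above the control mean (log2 CPM) in osimertinib 5, 0.30 in osimertinib 4, 0.14 in osimertinib 1, 0.04 in osimertinib 2 and -0.10 in osimertinib 3. Mitochondrial shares were 15.3% and 16.0% in osimertinib 5 and 4, against 8.62% to 10.2% in the other 3 libraries. In the thio group the order was the opposite, with the highest average at the lowest share. There the same 16 genes averaged 0.30 in thio 3, 0.12 in thio 1, 0.05 in thio 4 and 0.02 in thio 2. Shares in that order of thio libraries were 5.27%, 6.21%, 6.46% and 7.86%. The part of the mitochondrial share in these levels was not tested.

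Under 6-thio-dG alone, SRRM1 was the 1 member called, beside 13.9% of all tested genes (9.27% higher and 4.63% lower), and it was higher. It had 192, 189, 236 and 214 CPM in thio libraries, against 140, 149, 135, 146 and 146 CPM in control libraries. The groups did not overlap, and the log2 fold change was 0.53 ± 0.13 (SE; edgeR adjusted p = 0.0139); without thio 3, or with the olfactory receptor covariate, the call was lost (highest adjusted p over the fits leaving out 1 library, 0.0627). Groups did not overlap for 3 members above control (SRSF11, SRRM1 and RBM5) and 5 below (SRSF6, SRSF7, CLK2, LUC7L3 and HNRNPA2B1), beside 12.5% of all tested genes (7.21% above and 5.29% below). SRSF11 had 332, 311, 370 and 322 CPM in thio libraries, with a log2 fold change of 0.47 that did not pass the test (edgeR adjusted p = 0.136). CLK1 and CLK2 had log2 fold changes of 0.62 (edgeR adjusted p = 0.0513) and -0.47 (edgeR adjusted p = 0.0748), and neither passed. With the mitochondrial share as a covariate 10 members were called, 6 higher and 4 lower, beside 21% of all tested genes. They were SRRM1 and, in addition, SF3B1, SRSF11, HNRNPF, RBM5, CLK1, SRSF7, CLK2, SRSF2 and CLK3. That fit has 1 slope on the share over all 19 libraries, with shares up to 30.2% in the combination and 5.27% to 7.86% in thio. Whether that slope holds within the thio group was not tested. CLK2 was also called, with SRSF11, when only the thio and control libraries were fitted, beside 5.22% of all tested genes. DESeq2 called 5 members here, beside 18.8% of all tested genes: SRRM1, CLK1, SRSF7, SRSF2 and HNRNPA2B1. The summed fibroblast marker level was 277 to 439 CPM in thio libraries and 454 to 1047 CPM in control libraries, without overlap (2-sided exact permutation test, n = 4 and 5, p = 0.0159, adjusted over 5 comparisons p = 0.0794), and of 9 fibroblast markers tested 1 was called higher and 4 lower in thio. With the host marker level as a covariate the count of members stayed at 1, beside 10.7% of all tested genes. That level is the mean log2 CPM of 25 fibroblast, endothelial and skeletal muscle markers. It was 1.12 to 2.29 in thio and 1.09 to 3.41 in control libraries, so it does not carry the fibroblast difference. Whether the fibroblast difference bears on the members was not tested. The 3 comparisons against DMSO share the same 5 control libraries, so their values are not independent.

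The combination differed from osimertinib alone in 13 members, 8 higher and 5 lower, which is 31.0% of the members beside 15.8% of all tested genes (8.09% higher and 7.66% lower). The 8 were SRSF11, TRA2A, CLK1, SRRM1, RBM5, LUC7L, LUC7L3 and SF3B1, and the 5 were SRSF9, HNRNPH2, HNRNPK, HNRNPM and HNRNPU. Of the RBM and LUC7L genes 3 of 4 rose, and of the 16 hnRNPs 4 fell. SRSF11 had 318, 301, 238, 355 and 442 CPM in osimertinib libraries, and its log2 fold change in the combination against them was 0.89 ± 0.20 (SE; edgeR adjusted p = 0.0119). The ranges overlapped, because combination 1, with 359 CPM, lay below osimertinib 5.

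LUC7L had 86.5, 78.9, 58.2, 105 and 132 CPM in osimertinib libraries, and the combination's log2 fold change was 0.94 ± 0.22 (SE; edgeR adjusted p = 0.0134). RBM5 had 190, 184, 162, 200 and 264 CPM in osimertinib libraries, and the combination's log2 fold change was 0.76 ± 0.18 (SE; edgeR adjusted p = 0.0151). For both, combination libraries 1 and 4 lay at or below the highest osimertinib library. SRRM1 rose by 0.55 ± 0.13 and CLK1 by 0.77 ± 0.20 as log2 fold changes (SE; edgeR adjusted p = 0.0132 and 0.0192). HNRNPH2 had 108, 109, 132, 79.4 and 86.4 CPM in osimertinib libraries, and it fell in the combination by a log2 fold change of -0.75 ± 0.18 (SE; edgeR adjusted p = 0.0163). The range overlap was slight, with combination 1 at 80.3 CPM and osimertinib 4 at 79.4 CPM.

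No member lay above osimertinib without overlap and 6 lay below, beside 8.57% of all tested genes (4.63% above and 3.95% below). The 6 were SRSF2, SRSF3, SRSF9, TRA2B, U2AF2 and HNRNPC, and of these only SRSF9 was called. Single libraries moved the count of 13: it was 22 without combination 1, 5 without combination 3, 4 without combination 5, 6 without osimertinib 1, 8 without osimertinib 2 and 3 without osimertinib 3. The share of all tested genes called moved in the same way, to 28.2%, 3.47%, 3%, 5.45%, 6.86% and 3.22% in those fits. Without combination 3, combination 5 and thio 3 together it was 0, as were 0.0365% of all tested genes called. It was also 0 with either the mitochondrial share or olfactory receptor expression as a covariate, beside 0.018% and 1.48% of all tested genes.

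Against thio, the combination differed in 19 members, 12 higher and 7 lower, which is 45.2% of the members beside 44.2% of all tested genes (21.2% higher and 22.9% lower), a share near the background. Higher members were SRSF4, SRSF6, SRSF7, SRSF10, SRSF11, TRA2A, CLK2, CLK4, RBM5, LUC7L, LUC7L3 and HNRNPH1, and lower members were SRSF9, HNRNPH2, HNRNPK, HNRNPM, HNRNPR, HNRNPU and PTBP1. LUC7L3 had 203, 234, 160 and 213 CPM in thio libraries, all below the lowest combination library at 324 CPM. Its log2 fold change was 1.06 ± 0.18 (SE; edgeR adjusted p = 0.000164). LUC7L had 76.6, 66.3, 95.7 and 72.6 CPM in thio libraries, with no overlap and a log2 fold change of 1.18 ± 0.23 (SE; edgeR adjusted p = 0.000663). CLK2, with its values given above, differed by a log2 fold change of 0.87 ± 0.18 without overlap (SE; edgeR adjusted p = 0.000768).

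SRSF7, an SR protein with a zinc knuckle, had 159, 209, 204, 170 and 229 CPM in combination libraries, against 140, 141, 114 and 126 CPM in thio libraries. The groups did not overlap, and the log2 fold change was 0.57 ± 0.13 (SE; edgeR adjusted p = 0.0015). SRSF9 had 131, 141, 151 and 138 CPM and HNRNPH2 113, 107, 107 and 112 CPM in thio libraries, in both cases above every combination library, with log2 fold changes of -0.69 ± 0.15 and -0.85 ± 0.19 (SE; edgeR adjusted p = 0.00141 and 0.00181). Over the members, 10 lay above thio and 6 below without overlap, beside 33% of all tested genes (16.2% above and 16.8% below). With the mitochondrial share as a covariate the count of 19 was 0, beside 1.14% of all tested genes, and without combination 3, combination 5 and thio 3 it was 10, beside 20.1%.

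The interaction asks whether adding 6-thio-dG shifted a gene by a different amount under osimertinib than under DMSO. LUC7L3 was the 1 member called of 42, beside 3.45% of all tested genes (1.24% higher and 2.21% lower), with an interaction of 0.92 ± 0.24 on the log2 scale (SE; edgeR adjusted p = 0.0430). LUC7L3 had 282, 254, 211, 298 and 420 CPM in osimertinib libraries. The combination minus osimertinib difference was 0.53 and the thio minus control difference was -0.39, both as log2 fold changes, the second not called on its own (edgeR adjusted p = 0.132). The interaction call was lost in 12 of the 19 fits that each left out 1 library (combination 2, 3, 4 and 5, osimertinib 1, 2 and 3, thio 1 and 3, and control 3, 4 and 5). It was also lost with the mitochondrial share or the host marker level as a covariate and without combination 3, combination 5 and thio 3. CLK2 and LUC7L had interactions of 0.79 and 0.89 that did not pass the test (edgeR adjusted p = 0.0623 and 0.0897).

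Other genes of the pathway were taken from 7 lists, 119 tested genes in all. In the combination against control, 64 of the 119 were called, a share slightly above the 48.7% of all tested genes. Of the 7 lists, 6 had more genes lower than higher. The share called was 70% for SF3A, SF3B and PRPF genes and 70% for other SR protein kinases and phosphatases. It was 60% for nonsense-mediated decay genes and 55% for other alternative splicing regulators. Below the share of all tested genes lay snRNP genes (38.9%), splicing helicases (38.5%) and exon junction complex genes (37.5%). Of 20 SF3A, SF3B and PRPF genes, 11 fell and 3 rose: PRPF4, of the tri-snRNP, and PRPF19, the ubiquitin ligase of the spliceosome, both had log2 fold changes of -0.97, and PRPF39, a U1-associated protein, had 0.96. PRPF4 had 43.0, 38.3, 27.1, 37.7 and 27.7 CPM in combination libraries, against 74.9, 62.8, 75.0, 60.6 and 66.1 CPM in control libraries, with no overlap. Of 10 other SR protein kinases and phosphatases, 6 fell and 1 rose. PPP1R8, a nuclear subunit that directs protein phosphatase 1, had a log2 fold change of -0.60 and PPM1G had -0.67. DYRK1A, a kinase of SR proteins, had 0.45. Of 18 genes for Sm and other snRNP proteins 4 fell and 3 rose. SNRNP40, a U5 snRNP protein, had a log2 fold change of -0.84, SNRPD3 had -0.43 and SNRNP35 had 0.61. Of 13 splicing helicases 3 fell and 2 rose, with DDX42 at 0.64, DDX23 at -0.51 and DHX8 at -0.68.

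The list of 40 other alternative splicing regulators was mixed, with 12 higher and 10 lower. NKTR, a cyclophilin with an arginine-serine domain, had 202, 316, 340, 257 and 466 CPM in combination libraries, against 117, 149, 89.6, 115 and 130 CPM in control libraries. All combination libraries lay above control, and the log2 fold change was 1.40 ± 0.19 (SE; edgeR adjusted p = 3.63e-05). PTBP2, the neuronal relative of PTBP1, and LUC7L2, a relative of LUC7L, were also higher, with log2 fold changes of 1.19 and 0.99. Of 8 exon junction complex genes 3 fell and 0 rose: CASC3, EIF4A3 and RBM8A had log2 fold changes of -0.98, -0.87 and -0.47, and all 3 lay below control without overlap. Of 10 nonsense-mediated decay genes 5 fell and 1 rose. The helicase UPF1 had a log2 fold change of -0.74, SMG5 -0.91 and SMG8 -0.75.

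**Figure D5:**
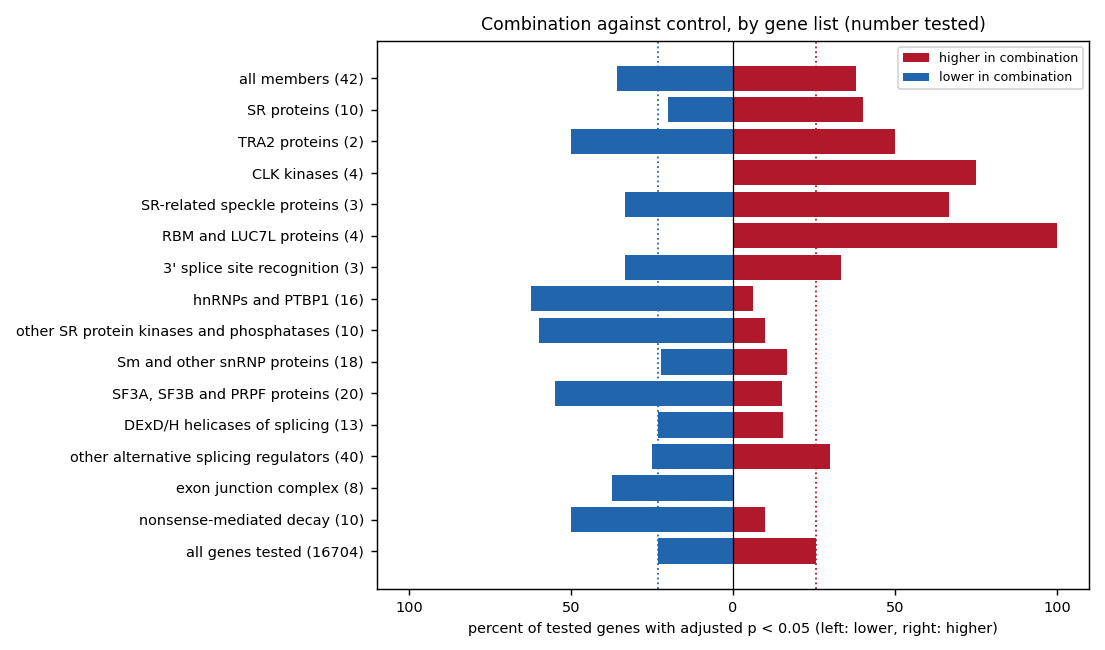
Percent of the tested genes of each list called lower and called higher in the combination against control, for the 7 families of the 42 genes and the 7 pathway lists; dotted lines mark all tested genes (23.1% lower and 25.7% higher). The RBM and LUC7L list has 4 of 4 genes higher, and the hnRNP list has 10 of 16 lower.

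In the remaining comparisons the pathway lists had 0 of 119 genes called for osimertinib against control, beside 4.16% of all tested genes. For thio against control 6 were called (4 of the other regulators higher and 2 snRNP genes lower), beside 13.9%. The combination differed from osimertinib in 30 of the 119, beside 15.8%. From thio it differed in 56 of the 119, beside 44.2%, a share near the background. LUC7L2 was higher in thio than in control by a log2 fold change of 0.76 (edgeR adjusted p = 0.00225). The interaction called 1 of the 119, beside 3.45% of all tested genes: UPF3B, a nonsense-mediated decay factor, at 0.96 ± 0.26 on the log2 scale (SE; edgeR adjusted p = 0.0485). The call was lost in 15 of the 19 fits that each left out 1 library (highest adjusted p 0.0993), and with the mitochondrial share or the host marker level as a covariate. UPF3B had 95.7, 157, 158, 137 and 212 CPM in combination libraries and 99.9, 88.8, 80.2, 99.8 and 155 CPM in osimertinib libraries. Its levels were 83.2, 89.9, 87.1 and 88.4 CPM in thio libraries and 104, 96.7, 133, 116 and 134 CPM in control libraries. Thio libraries lay below all control and all combination libraries, and 4 of the 5 combination libraries lay above osimertinib libraries 1 to 4.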

How the data were processed

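The 19 libraries were made from poly-A RNA of tumours with a kit that does not mark strand, per the labels' protocols, so overlapping antisense genes cannot be told apart. The deposited table holds raw read counts per human gene symbol; the submitters' processing notes name FastQC, Trimmomatic, STAR and hg38, and anything on tool versions, the read counter or the handling of mouse reads was not given in the sources used here. Reads from conserved mouse genes may therefore be among the counts. All columns were mapped to samples (0 columns not used). The labels record the organism as mouse although the table uses human symbols.

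Genes were kept with filterByExpr of edgeR (minimum count 10, minimum total 15), which left 16704 genes and at least 99.8% of each library's counts. The 4 group means were fitted over all 19 libraries with TMM scaling and the quasi-likelihood F test (edgeR 4.0.16, R 4.3.3, limma 3.58.1), with Benjamini-Hochberg adjustment over all tested genes and calls at an adjusted p under 0.05. Levels are CPM on TMM-scaled library sizes; they are not per length, so levels of different genes are not compared. Library measures were compared with 2-sided exact permutation tests (SciPy 1.17.1), adjusted over the 5 pairwise comparisons of each measure. The scripts were tested on simulated data.

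All 42 members are named. Values in every library are given for up to 6 called members with the smallest p in each pairwise comparison, up to 3 in the interaction, and the 4 CLK kinases. Of each pathway list the 3 called genes with the smallest p in the combination against control are named. For the other comparisons only some such genes are named. NKTR, PRPF4 and UPF3B were given full values after their results were seen. The members, the pathway lists, the marker lists and the 3 libraries left out together were chosen with earlier results of these data known.

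Alternatives were RLE and upper-quartile scaling, no filter and a stricter filter that asks for a CPM of 1 or more in 4 libraries, covariates for the mitochondrial percent, the olfactory receptor level and the host marker level, fits of only the groups compared, DESeq2 1.42.0, leaving out each library in turn, and leaving out combination 3, combination 5 and thio 3.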

Additional observations from a re-analysis of the deposited data

Results flagged for a closer look

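Within single groups, 5 of 168 sets of 4 or 5 libraries had 1 library set off by a relatively large gap. The gap was measured against the whole range of the set in log2 CPM, so a small gap in a tight set can be flagged. At the rate of about 1 in 20 that chance gives, 8.4 such sets would be expected. HNRNPH2 was 4.95 in combination 5 against 5.99 to 6.33 in the other combination libraries. SON was 8.98 in osimertinib 5 against 8.82 to 8.84 in the other osimertinib libraries. SRSF5 was 7.68 in control 3 against 7.44 to 7.50 in the other control libraries. CLK1 was 7.25 in control 2 against 6.96 to 7.02 in the other control libraries, and HNRNPF was 8.65 in control 1 against 8.26 to 8.37.

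The interaction test, of whether the effect of 6-thio-dG differs between osimertinib and DMSO backgrounds, was passed by LUC7L3 (0.92 on the log2 scale, edgeR adjusted p = 0.0430) and UPF3B (0.96 on the log2 scale, edgeR adjusted p = 0.0485). The call of LUC7L3 was lost in 12 and that of UPF3B in 15 of the 19 fits that each left out 1 library. Both were also lost with the mitochondrial or the host marker covariate and without combination 3, combination 5 and thio 3.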

How the results depend on the processing

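The counts below are of members called, then of pathway list genes called. With the analysis as reported they were 31 and 64 for the combination against control, 0 and 0 for osimertinib against control, 1 and 6 for thio against control, 13 and 30 for the combination against osimertinib, 19 and 56 for the combination against thio, and 1 and 1 for the interaction. With the mitochondrial percent as a covariate the combination against control gave 2 and 3, thio against control 10 and 16 (beside 21% of all tested genes), and the combination against osimertinib, the combination against thio and the interaction 0 and 0 each. With the olfactory receptor level as a covariate the combination against control, thio against control and the combination against osimertinib gave 0 and 0 each, the combination against thio called 12 members, and the interaction gave 4 and 5. Of all tested genes 34.9% were called there for the combination against thio and 3.36% for the interaction. Without combination 3, combination 5 and thio 3 the combination against control gave 16 and 35, osimertinib against control 1 and 3, the combination against thio 10 and 25, the combination against osimertinib and the interaction 0 and 0 each, and thio against control 2 pathway genes. In that fit 7.01% of all tested genes were called for osimertinib against control and 5.53% for thio against control. With the host marker level as a covariate the interaction gave 0 and 0, beside 0.796% of all tested genes. With only the groups compared in the fit, the combination against control called 24 members, beside 43.6% of all tested genes. The calls lost there were SRRM2, SON, U2AF2, HNRNPA3, PTBP1, TRA2B and HNRNPA0. In the same setting thio against control gave 3 and 2, beside 5.22% of all tested genes. The combination against osimertinib gave 7 and 14, beside 11.8%. DESeq2 gave 2 and 3 for osimertinib against control, beside 7.19% of all tested genes. It gave 5 members for thio against control, beside 18.8%, and 5 and 9 for the interaction, beside 11.2%. Upper-quartile scaling called 1 member for osimertinib against control, beside 4.3% of all tested genes, and 2 for the interaction, beside 3.73%. Without a filter on low counts, 26 members were called for the combination against control, beside 31.5% of all tested genes. SRRM2, SON, SRSF5, TRA2B and CLK2 were lost there. That fit also called 1 pathway gene for osimertinib against control, 2 members for thio against control and 3 pathway genes for the interaction. Its shares of all tested genes called were 2.76%, 7.36% and 2.16% in the same order. The stricter filter called 1 member for osimertinib against control, beside 3.29% of all tested genes, and 3 pathway genes for the interaction, beside 4.93%. The cause of these shifts was not tested.

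Leaving out 1 library at a time gave 24 to 31 and 50 to 72 for the combination against control, 0 to 1 and 0 to 4 for osimertinib against control, 0 to 4 and 2 to 9 for thio against control, 3 to 22 and 3 to 43 for the combination against osimertinib, 16 to 25 and 47 to 57 for the combination against thio, and 0 to 6 and 0 to 17 for the interaction. The share of all tested genes called in these fits also moved. It was 39.9% to 52.7% for the combination against control and 1.31% to 5.34% for osimertinib against control. For thio against control it was 4.32% to 16.4%, and for the combination against osimertinib 3% to 28.2%. For the combination against thio it was 36.5% to 48.5%, and for the interaction 0% to 12.9%. The combination minus control difference in mitochondrial percent was 10.5 points (7.58 to 12.4 leaving out 1 library) and in olfactory receptor level 20.2 CPM (16.7 to 23.7); without the 3 libraries they were 5.85 points and 12.7 CPM. The 3 remaining combination libraries still lay above every control library in both measures, and p was 0.0357 (adjusted p = 0.0893), the smallest that the exact permutation test gives with 3 against 5 libraries.

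Called members changed sign, without being called, in the combination against control for SRSF4 (-0.013) and CLK2 (-0.16) under the mitochondrial covariate, and for CLK4 (-0.16), RBM39 (-0.14), SF3B1 (-0.042) and HNRNPA0 (0.25) under the olfactory receptor covariate. In the combination against thio, SRSF4 (-0.050), SRSF11 (-0.048), CLK4 (-0.025), RBM5 (-0.27) and HNRNPU (0.032) did so under the mitochondrial covariate. Upper-quartile scaling moved the median log2 fold change of all genes in the combination against thio to 0.21, beside 0.03, and moved the higher share of all calls to 65.5%, beside 48.1%, in that comparison, to 64.8% beside 51.4% against osimertinib, to 55.6% beside 66.7% in thio against control and to 57.3% beside 35.9% in the interaction. No paired analysis was possible because replicates were numbered within each group by accession, so equal numbers do not link libraries. With 4 or 5 libraries a group, small changes can be missed.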
